A study of Canis lupus familiaris with 7 samples.

Results

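The 45 genes described here encode the machinery of DNA replication and cell division. They were chosen by name from a list of 49 cell cycle genes, and a listed gene was taken when the table of FPKM values (fragments scaled to transcript length and to the number of mapped fragments) had a row under its symbol, which was so for 45 of the 24580 genes in the table. TYMS, CCNB1, CCNB2 and CENPF had no row under their symbol and were not analysed here. All 45 genes passed the filter, a mean level of 1 FPKM or more, and were tested, among 13507 genes tested in all.

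RNA was sequenced from bone of dogs with osteosarcoma (OSA): 3 OSA tumor samples (T1, T3 and T10) and 4 non-tumor samples (N1, N3, N8 and N9). Tissue pieces were taken at amputation or after euthanasia, the non-tumor pieces from bone beside a tumor, so the non-tumor samples are not bone of healthy dogs. The breed, sex, age and treatment of each dog and the bone sampled were not given in the sources used here. The labels do not state that the samples of a group came from separate dogs, and the p-values measure the spread between these samples alone.

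A cell that is about to copy its DNA first loads the MCM2 to MCM7 helicase onto replication origins with the help of CDC6 and CDT1, and then fires these origins in S phase, when PCNA, FEN1 and the enzymes of nucleotide supply work at the fork. After S phase, cyclin A and cyclin B with CDK1, the Aurora and Polo-like kinases and a set of kinesins and checkpoint proteins build the spindle and separate the chromosomes. The genes of both programs are switched on by E2F factors, MYBL2 and FOXM1 and are low in resting cells such as muscle fibers, adipocytes and osteocytes. In bone, dividing cells are found in a tumor but also among the blood cell precursors of the marrow.

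The 7 samples were not alike in makeup, and these differences touch each result below. Of the markers of skeletal muscle, 11 of 12 were in the table and their summed level reached 88334 FPKM in N8 and 57551 in N9, with 1370 in N3 and 85.2 in N1, against 6.96 to 15.9 in the tumor samples. The summed level of 14 of 15 markers of erythroid precursors was 13.4 to 4840 FPKM in non-tumor and 8.55 to 89.2 in tumor, and that of 8 of 12 markers of granulocyte precursors was 110 to 9961 and 55.1 to 94.0 FPKM. The erythroid and granulocyte sums were high in N3 (3298 and 9961 FPKM) and N8 (4840 and 9431 FPKM), lower in N9 (377 and 331 FPKM) and lowest of the non-tumor samples in N1 (13.4 and 110 FPKM). N1 also stood apart in other ways: its osteoblast markers summed to 16048 FPKM (188 to 1992 in the other non-tumor samples and 2217 to 12709 in tumor), and over all genes it lay nearer to T1 (median absolute difference of 0.31 on the log2 scale) than any other of the 21 pairs of samples lay to each other (0.59 or more). The defining bone matrix gene COL1A1 was listed at 0 in T1, and COL1A2 had the highest mean of the osteoblast markers. No counts were analysed here. The number of fragments behind 1 FPKM, relative to N1 and read from the steps between the lowest values, was 0.543 in N8, 0.652 in N9 and 0.937 to 1.44 in the others.

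Tumor was compared with non-tumor bone on log2(FPKM + 1) with limma, and a gene was called higher or lower in tumor when its log2 fold change was at least 1 either way with an unadjusted p under 0.05. None of the 45 genes was called, 0 higher and 0 lower. Of all 13507 genes tested, 6.86% were called, 3.28% higher and 3.58% lower, and 0 had a Benjamini-Hochberg adjusted p under 0.05, while 927 had an unadjusted p under 0.05. Among the 45 genes the smallest unadjusted p was 0.102, and 0 were under 0.05. In each of the 45 genes the values of the groups overlapped, whereas 5.85% of all genes tested had groups that did not overlap (3.04% with each tumor sample above and 2.81% below). In bulk tissue, fewer dividing cells and less RNA per cell cannot be told apart.

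Most fold changes of the cell cycle genes were above 0 with all 7 samples and no block, without a call. In that comparison, 37 of 45 were above 0 and 8 below, with a median log2 fold change of 0.42 against -0.02 over all genes tested, and 4 genes (CDK1, UBE2C, KIF20A and KIF23) reached a log2 fold change of 1. The sign of the median depended on the samples and the model. With the number in the label as a replicate block, the median was -0.43 with 7 of 45 above 0 (fixed block, 4 samples) or 0.12 with 27 of 45 above 0 (random block), and 0 of 45 were called in either, against 1.78% and 7.86% of all genes tested. Without N9 the median was -0.11, 17 of 45 were above 0 and 28 below, the range was -0.97 to 0.72, and 0 were called, against 5.09% of all genes tested. Leaving out N1 in place of N9 gave a median of 0.55 and 0 calls, against 14.8% of all genes tested. The median was 0.73 without N3 (42 of 45 above 0), 0.67 without N8, 0.58 without T1, 0.47 without T3 and 0.22 without T10 (31 of 45 above 0). Without both N1 and N9, a choice made after the data were seen, 2 of 45 were called lower, RRM2 (log2 fold change of -1.32, with an unadjusted limma p of 0.0489) and CCNE2 (-1.53, with 0.0360), against 13.1% of all genes tested called either way and 8.59% lower. The data left wide limits: the median half-width of the 95% interval of a fold change was 1.70 on the log2 scale, and the intervals of the 45 genes ran from -2.11 to 3.498 in all, so that a p that misses the threshold here does not show equal levels.

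**Figure D1:**
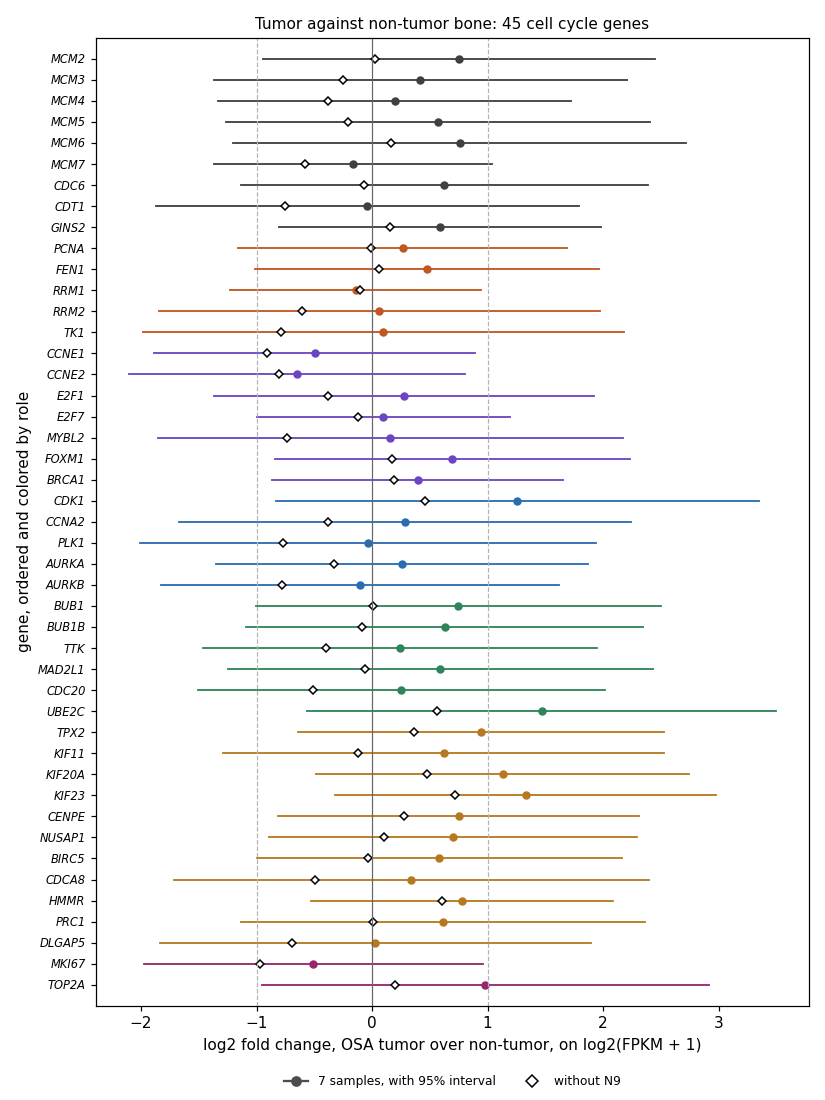
Log2 fold change of OSA tumor (n = 3) over non-tumor bone (n = 4) on log2(FPKM + 1) for the 45 genes, ordered and colored by role; dots and lines are limma estimates with 95% intervals over 7 samples, open diamonds the estimate without N9, and dashed lines a log2 fold change of 1 either way. Each interval crosses 0, and the median moves from 0.42 to -0.11 when N9 is left out.

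N9, a non-tumor sample, held the lowest level in 42 of the 45 genes (93.3%). Over all genes tested N9 was the lowest sample in 16.1%. The median ratio of N9 to the mean of N1, N3 and N8 was 0.107 for the cell cycle genes and 0.948 for all genes tested, and the mean log2 level over all genes tested differed little between samples (3.30 to 3.52). The ratio was 0.0960 in the 24 mitotic genes, 0.138 in the 14 S phase genes and 0.238 in the 7 G1/S regulators and transcription factors. The relative depth of N9, 0.652, was the second lowest after the 0.543 of N8, against 0.937 or more in the other 5 samples. N8 carried more muscle signal than N9, and the sum of its cell cycle genes was 1102 FPKM against 203 in N9. N8 also had higher erythroid (4840 against 377 FPKM in N9) and granulocyte markers (9431 against 331 FPKM). In N1 both of these marker sums, 13.4 and 110 FPKM, were below those of N9, with 894 FPKM of cell cycle genes. The tumor samples were also below N9 in both sums (8.55 to 89.2 and 55.1 to 94.0 FPKM). Their cell cycle sums were 802 to 1509 FPKM. The part of depth, muscle or marrow content in the level of the cell cycle genes was not tested.

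**Figure D2:**
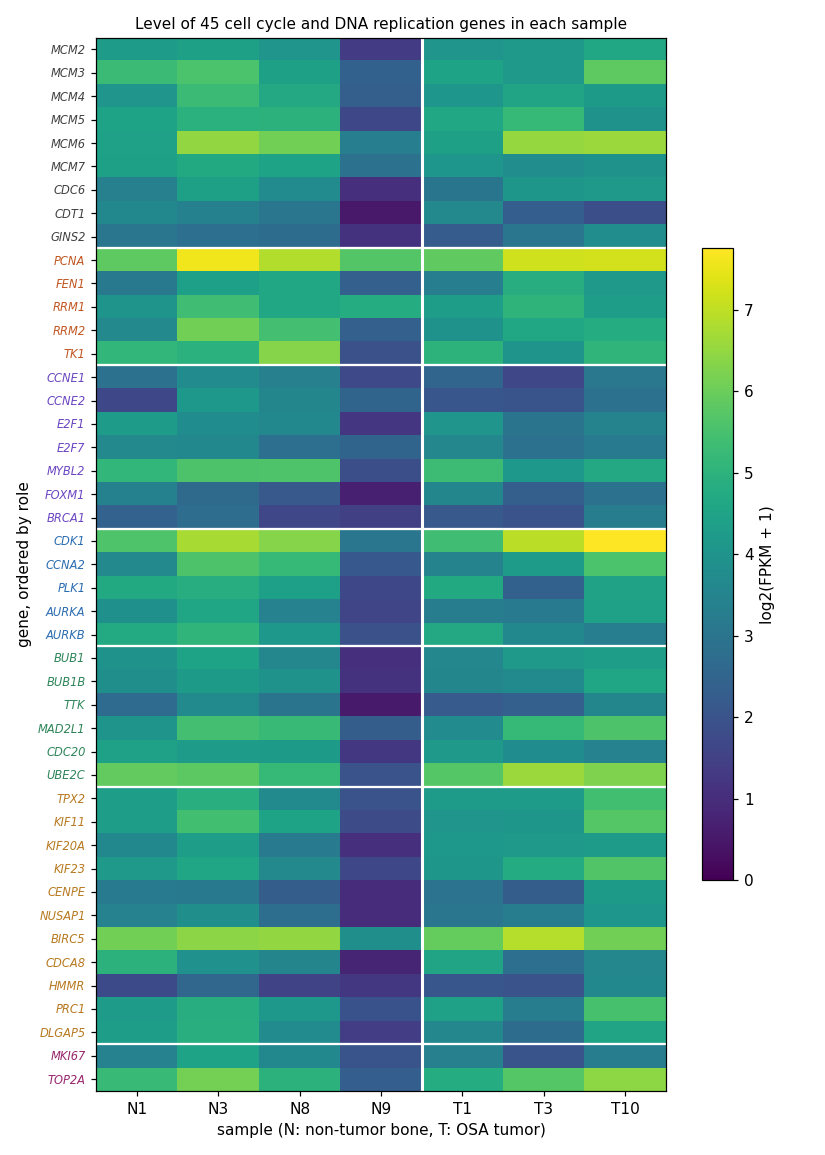
Level of each of the 45 genes in each of the 7 samples as log2(FPKM + 1), ordered by role with white lines between roles and between the 4 non-tumor and 3 tumor samples. N9 forms a dark column, the lowest of the 7 samples in 42 of 45 genes.

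The remaining samples had a spread of a few fold around each other. In non-tumor bone the median fold range of a cell cycle gene over the 4 samples was 12.4, and 2.20 without N9, against 2.64 over the 3 tumor samples. For all genes tested these medians were 3.70, 2.70 and 3.15. Within the group without N9, N3 was highest in 31 of 45 genes, and within the tumor group T10 was highest in 28 of 45. Over all 7 samples N3 was highest in 17 genes, T10 in 16, N1 and T3 in 4 each, N8 and T1 in 2 each and N9 in 0. A non-tumor and a tumor sample thus shared most of the highest levels, N3 with 37.8% and T10 with 35.6% of the 45 genes. Over all genes tested N3 was the highest sample in 11.8%, T10 in 15.8% and N9 in 21.4%. The summed level of the 45 genes ranged from 203 FPKM in N9 through 894 in N1 and 1102 in N8 to 1531 in N3, and from 802 in T1 through 1135 in T3 to 1509 in T10. As a share of the summed FPKM of all genes, which itself differed between the samples, they made up 0.0155% in N9, 0.0629% in N8, 0.166% in N1 and 0.222% in N3, and in tumor from 0.0716% in T1 through 0.126% in T3 to 0.259% in T10. N9 was lowest by either measure, while the order of other samples differed. N3 was highest by sum and T10 by share. N1 was below N8 and T3 by sum and above them by share, and N8 was above T1 by sum and below it by share.

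The pair N1 and T1 had nearly the same cell cycle profile. In all 45 genes T1 lay within 2-fold of N1, with ratios of T1 to N1 from 0.526 to 1.46 and a median of 0.879, and T1 was above N1 in 13 of 45. The median absolute difference of this pair over the 45 genes was 0.24 on the log2 scale, and the next nearest pair was N3 and T10 with 0.39. The likeness of N1 and T1 was not particular to these genes. Over all genes tested they were also the nearest pair, at 0.31 against 0.59 or more in the other pairs. N1 and T1 share the number 1 in their labels. The labels and the study call the non-tumor bone matched to the tumors, but they do not say that the number marks the dog.

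The genes of origin licensing and of the helicase came first in the order of the cycle. The MCM2 to MCM7 proteins form the 6-membered ring that unwinds DNA. MCM6 (ENSCAFG00000005143, CanFam3.1 chromosome 19, 38627063 to 38661148) had the highest mean of this group, with 20.8, 88.5, 68.3 and 8.99 FPKM in N1, N3, N8 and N9 and 20.2, 91.9 and 96.1 FPKM in T1, T3 and T10. N3, N8, T3 and T10 were high, N1 and T1 were alike at a lower level, and the groups overlapped. Its log2 fold change was 0.76 ± 0.87 (SE), with an adjusted limma p of 0.842, and 0.17 without N9.

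MCM2 (ENSCAFG00000004052, chromosome 20, 1681911 to 1702720) stood at 18.7, 20.4, 15.6 and 1.53 FPKM in N1, N3, N8 and N9 and at 15.3, 17.3 and 23.8 FPKM in T1, T3 and T10. Apart from N9, the 6 samples lay close together. It had the smallest p of the licensing genes (adjusted p = 0.814 by limma, log2 fold change of 0.76 ± 0.75, 95% interval from -0.94 to 2.45), and without N9 the estimate was 0.026. MCM3 was measured at 37.7, 46.1, 20.2 and 4.28 FPKM in non-tumor and at 21.6, 16.8 and 55.8 FPKM in tumor samples, with T10 highest. MCM4 was measured at 15.5, 37.8, 24.6 and 4.06 FPKM in non-tumor and 16.0, 22.2 and 17.6 FPKM in tumor samples. Both genes overlapped between the groups, with log2 fold changes of 0.42 and 0.20 that turned to -0.25 and -0.39 without N9.

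MCM5 was measured at 21.7, 30.2, 30.4 and 2.22 FPKM in non-tumor and 24.03, 36.0 and 14.5 FPKM in tumor samples. MCM7, whose interval in the table is shared by 5 genes, was measured at 20.2, 25.1, 21.4 and 6.36 FPKM in non-tumor and 15.7, 13.0 and 14.9 FPKM in tumor samples. In MCM7 the tumor samples lay below N1, N3 and N8 but above N9, and the log2 fold change was -0.16, or -0.58 without N9. That of MCM5 was 0.57, or -0.21 without N9. The 6 MCM genes did not keep a constant ratio, although their proteins act as 1 ring: the highest exceeded the lowest by 1.57-fold in T1, 2.43-fold in N1, 4.34-fold in N3, 4.37-fold in N8, 5.87-fold in N9, 6.63-fold in T10 and 7.07-fold in T3. MCM6 was the highest of the 6 in N3, N8, N9, T3 and T10, MCM3 in N1 and MCM5 in T1.

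The loading factors CDC6 and CDT1 differed in the tumor samples. CDC6 was measured at 9.28, 20.4, 12.3 and 1.07 FPKM in non-tumor and 6.99, 16.1 and 17.4 FPKM in tumor samples. Its interval is shared by 2 genes. CDT1, whose interval is shared by 13 genes, was measured at 11.3, 9.66, 7.21 and 0.432 FPKM in non-tumor and 11.4, 4.02 and 2.62 FPKM in tumor samples. CDC6 was thus highest in T10 and lowest in T1 of the tumor samples, and CDT1 the other way round. GINS2, a subunit of the complex that joins the helicase when an origin fires, was measured at 5.71 to 7.16 FPKM in N1, N3 and N8, at 1.21 FPKM in N9 and at 3.77, 7.27 and 12.9 FPKM in T1, T3 and T10. Of the 9 genes of this role, 7 had a log2 fold change above 0 and 2 below, and without N9 these counts were 3 and 6.

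At the replication fork, PCNA, the sliding clamp of the polymerases (ENSCAFG00000006030, chromosome 24, 16478946 to 16484920), had the highest level of the S phase genes. It was measured at 56.3, 193, 115 and 50.4 FPKM in N1, N3, N8 and N9 and at 57.5, 146 and 147 FPKM in T1, T3 and T10. N9 was again the lowest, but close to N1 and T1, at 0.416 of the mean of N1, N3 and N8. Tumor differed from non-tumor by a log2 fold change of 0.26 ± 0.64 (adjusted p = 0.936 by limma), and by -0.0062 without N9. FEN1, the nuclease that trims Okazaki fragments, was measured at 7.69, 19.6, 23.9 and 4.19 FPKM in non-tumor and 8.99, 27.5 and 16.8 FPKM in tumor samples. With N1, N9 and T1 low and the others high, its groups overlapped, and its log2 fold change of 0.48 had an adjusted limma p of 0.872.

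The subunits of ribonucleotide reductase, which makes the deoxynucleotides, were at unequal levels in N9. RRM1, the large subunit, was measured at 15.2, 40.6, 23.4 and 27.1 FPKM in N1, N3, N8 and N9 and at 19.0, 31.7 and 19.4 FPKM in tumor samples. RRM2, the small subunit that is made in S phase, was measured at 11.4, 68.3, 42.0 and 4.18 FPKM in N1, N3, N8 and N9 and at 14.4, 23.4 and 26.8 FPKM in tumor samples. RRM1 was the only 1 of the 45 genes at which N9 was not below the mean of N1, N3 and N8, with a ratio of 1.03. The ratio of RRM2 to RRM1 was 0.154 in N9 and 0.739 to 1.79 in the other 6 samples. Thymidine kinase TK1, which salvages thymidine, was measured at 34.4, 30.2, 81.0 and 2.81 FPKM in non-tumor and 30.9, 15.3 and 32.6 FPKM in tumor samples.

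**Figure D3:**
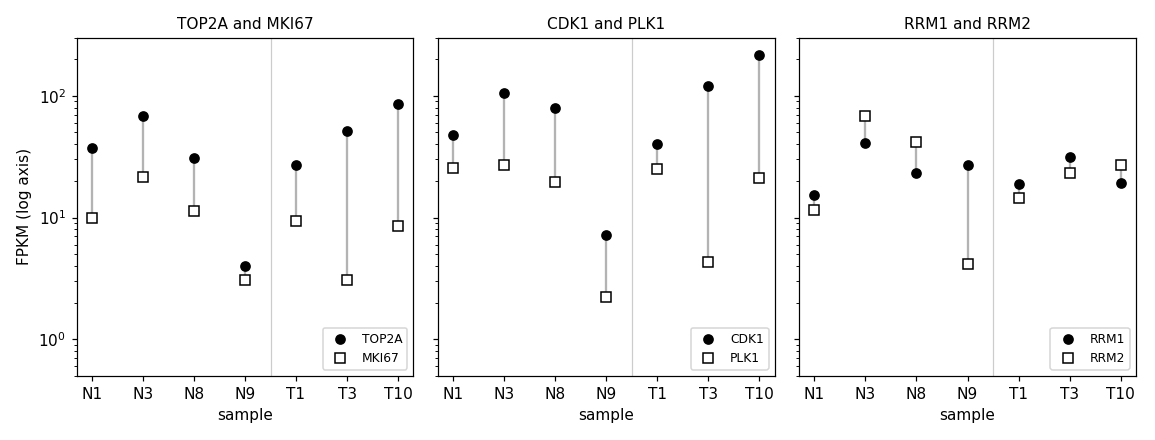
FPKM (log axis) of 3 pairs of genes in each of the 7 samples, with a gray line between the genes of a pair. TOP2A exceeds MKI67 16.8-fold in T3 and CDK1 exceeds PLK1 28.3-fold in T3, while RRM2 is at 0.154 of RRM1 in N9; the pairs were chosen after their values were seen.

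The median log2 fold change of the 7 G1/S regulators and transcription factors was 0.16, against 0.34 in S phase and 0.62 in mitotic genes. The order of these medians depended on the samples. Without T3 the first was 0.44 against 0.19 in S phase genes, and without N1 it was 0.35 against 0.30. This list mixes G1/S regulators with factors of other roles, such as FOXM1 and BRCA1. MYBL2, a transcription factor of dividing cells with an interval shared by 2 genes, had the highest mean and was measured at 33.8, 47.4, 47.6 and 2.66 FPKM in non-tumor and 38.4, 16.7 and 24.6 FPKM in tumor samples. Its log2 fold change was 0.16 ± 0.90 (adjusted p = 0.972 by limma), and -0.73 without N9. FOXM1, which drives the genes of G2 and mitosis, was measured at 9.60, 5.46, 3.51 and 0.594 FPKM in non-tumor and 10.7, 4.05 and 6.47 FPKM in tumor samples, with N1 and T1 highest. It had the smallest p of this role (adjusted p = 0.812 by limma, log2 fold change of 0.69 ± 0.68, 0.17 without N9).

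Each of the 7 G1/S regulators and transcription factors had its lowest tumor level in T3. Cyclin E1 (CCNE1), a partner of CDK2, was the only 1 of the 45 genes with its lowest value in a tumor sample: 2.16 FPKM in T3, against 2.25 FPKM in N9, 6.55 to 12.4 FPKM in N1, N3 and N8, and 4.82 and 7.68 FPKM in T1 and T10. Cyclin E2 (CCNE2) was measured at 2.20, 16.4, 10.9 and 4.69 FPKM in non-tumor and 3.20, 3.01 and 6.36 FPKM in tumor samples, lowest in N1 and at 0.477 of the mean of N1, N3 and N8 in N9. Its log2 fold change was the lowest of the 45 genes, -0.65 ± 0.65 (adjusted p = 0.813 by limma, 95% interval from -2.11 to 0.81). E2F1, the activating E2F factor, was measured at 1.35 FPKM in N9 and 6.93 to 17.9 FPKM elsewhere, and E2F7, a repressor of E2F targets, at 4.65 FPKM in N9 and 6.10 to 11.5 FPKM elsewhere. BRCA1, which acts in repair of broken DNA, was measured at 1.76 FPKM in N9, 2.14 to 5.90 FPKM in the other non-tumor samples and 2.98 to 8.85 FPKM in tumor. The row of E2F1 covers an interval of only 828 bases.

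Among the mitotic cyclins and kinases, CDK1 (ENSCAFG00000012904, chromosome 4, 12885974 to 12912553), the kinase that drives entry into mitosis, had both the highest mean and the smallest p. It was measured at 47.9, 105, 79.7 and 7.22 FPKM in N1, N3, N8 and N9 and at 40.4, 121 and 215 FPKM in T1, T3 and T10. T3 and T10 lay above each non-tumor sample, and T1 lay below N1, N3 and N8. The mean was 60.0 ± 42.2 FPKM (SD, n = 4) in non-tumor and 125 ± 87.2 FPKM (SD, n = 3) in tumor. This gave a log2 fold change of 1.26 ± 0.93 (adjusted p = 0.754 by limma, 95% interval from -0.83 to 3.35), and 0.46 without N9.

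The kinases beside CDK1 did not share its pattern in tumor. PLK1, the Polo-like kinase of spindle assembly, with an interval shared by 2 genes, was measured at 25.4, 27.3, 19.6 and 2.21 FPKM in non-tumor and 25.2, 4.29 and 21.1 FPKM in tumor samples, low in T3 as in N9. The ratio of CDK1 to PLK1 was 1.60 to 4.06 in T1 and the 4 non-tumor samples, 10.2 in T10 and 28.3 in T3. Aurora kinase A (AURKA), of the spindle poles, was measured at 8.32 to 20.6 FPKM in tumor and Aurora kinase B (AURKB), of the chromosomal passenger complex, at 8.97 to 24.4 FPKM, with N9 at 2.10 and 2.83 FPKM. AURKA was highest in T10 of the tumor samples and AURKB was lowest there. Cyclin A2 (CCNA2) was measured at 11.5, 47.0, 35.7 and 3.37 FPKM in non-tumor and 10.1, 18.0 and 45.99 FPKM in tumor samples. Its interval is shared by 2 genes.

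The genes of the spindle checkpoint and of anaphase had log2 fold changes above 0 in 6 of 6, and in 2 of 6 without N9. UBE2C (ENSCAFG00000009745, chromosome 24, 33128379 to 33132023), the ubiquitin-conjugating enzyme of the anaphase-promoting complex, had the largest log2 fold change of the 45 genes. It was measured at 58.1, 54.1, 35.8 and 2.99 FPKM in N1, N3, N8 and N9 and at 51.5, 95.5 and 74.9 FPKM in T1, T3 and T10. T3 and T10 were above each non-tumor sample, and T1 was below N1 and N3. Its log2 fold change was 1.47 ± 0.90 (adjusted p = 0.712 by limma, 95% interval from -0.56 to 3.498), and it was 0.56 without N9. CDC20, the activator of the same complex, was measured at 20.7, 18.5, 17.5 and 1.39 FPKM in non-tumor and 17.4, 12.7 and 9.84 FPKM in tumor samples. Its interval is shared by 2 genes. Without N9 the tumor samples of CDC20 lay below each non-tumor sample, T1 (17.4 FPKM) by little below N8 (17.5 FPKM). For T3 and T10 this was the opposite order to that of UBE2C. The unadjusted limma p of CDC20 without N9 was 0.294, and the share of all genes with such an order was not computed.

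The checkpoint kinases and sensors had N9 far below the others. BUB1, a kinetochore kinase, was measured at 11.1 to 21.8 FPKM in N1, N3 and N8, 1.12 FPKM in N9 and 10.99 to 19.4 FPKM in tumor. BUB1B, the checkpoint protein that binds CDC20, was measured at 13.6 to 17.8 FPKM in N1, N3 and N8, 1.22 FPKM in N9 and 10.9 to 22.6 FPKM in tumor. The intervals of BUB1 and BUB1B are each shared by 2 genes. TTK, the kinase that starts the checkpoint, was measured at 0.470 FPKM in N9 and 3.71 to 11.9 FPKM elsewhere, and MAD2L1, its soluble effector, at 3.83 FPKM in N9 and 12.4 to 46.7 FPKM elsewhere.

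The genes of the spindle, the kinetochore and cytokinesis had log2 fold changes above 0 in 11 of 11, from 0.03 to 1.33, and in 7 of 11 without N9, from -0.69 to 0.72. KIF23 (ENSCAFG00000017535, chromosome 30, 33302709 to 33337672), a kinesin of the central spindle, had the smallest p of the 45 genes. It was measured at 16.9, 22.9, 11.5 and 2.18 FPKM in N1, N3, N8 and N9 and at 16.1, 26.4 and 49.3 FPKM in T1, T3 and T10. T3 and T10 were the highest samples and T1 lay beside N1. KIF23 had a log2 fold change of 1.33 ± 0.74 (adjusted p = 0.697 by limma, 95% interval from -0.32 to 2.98), and 0.72 without N9, the highest of the 45 in that comparison. KIF20A, another kinesin of cytokinesis with an interval shared by 2 genes, was measured at 11.4, 18.7, 8.09 and 1.12 FPKM in non-tumor and 16.5, 16.9 and 18.1 FPKM in tumor samples. It had the most even tumor level of the 45 genes, with a range of 1.10-fold, and a log2 fold change of 1.13 ± 0.72 (adjusted p = 0.724 by limma), or 0.48 without N9.

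BIRC5, survivin of the chromosomal passenger complex (ENSCAFG00000005302), had the highest mean of this role, at 67.7, 83.9, 89.0 and 13.4 FPKM in non-tumor and 59.0, 116 and 67.6 FPKM in tumor samples. Its interval in the table (chromosome 9, 2713230 to 2957441) is shared by 7 genes. The groups overlapped, and its log2 fold change of 0.58 ± 0.70 (adjusted p = 0.851 by limma) was -0.039 without N9. CDCA8, another subunit of that complex with an interval shared by 11 genes, had the widest range of the 45 genes in non-tumor bone, 40.5-fold, from 0.751 FPKM in N9 to 30.4 FPKM in N1. It was measured at 22.0, 6.10 and 11.02 FPKM in T1, T3 and T10.

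T10 held the highest tumor level of most spindle motors and microtubule proteins. KIF11, the kinesin that pushes the spindle poles apart, was measured at 15.5, 16.2 and 51.3 FPKM in T1, T3 and T10. TPX2, which activates AURKA, was measured at 18.6, 18.3 and 41.0 FPKM, PRC1, which bundles microtubules at the midzone, at 20.9, 8.76 and 44.2 FPKM, and the kinetochore kinesin CENPE at 6.74, 3.85 and 17.7 FPKM in the same samples. These 4 genes were between 0.989 and 2.95 FPKM in N9 and between 3.92 and 41.8 FPKM in N1, N3 and N8. HMMR, a spindle protein that binds hyaluronan, was measured at 2.98 to 11.2 FPKM, NUSAP1, a microtubule-associated protein with an interval shared by 3 genes, at 7.21 to 15.8 FPKM and DLGAP5, a spindle fiber protein with an interval shared by 2, at 5.62 to 22.2 FPKM in tumor, each highest in T10.

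The proliferation markers MKI67 and TOP2A, which coat and untangle the chromosomes of dividing cells, had fold changes of opposite sign, neither of them called. MKI67, the Ki-67 antigen used to count dividing cells in pathology (ENSCAFG00000013255, chromosome 28, 36915568 to 36939437), was measured at 9.85, 21.6, 11.3 and 3.06 FPKM in N1, N3, N8 and N9 and at 9.34, 3.07 and 8.59 FPKM in T1, T3 and T10. T3 was at the level of N9, and all 3 tumor samples were below N1, N3 and N8. For MKI67 the log2 fold change was -0.51 ± 0.65 (adjusted p = 0.860 by limma), and -0.97 without N9, the lowest of the 45 in that comparison. TOP2A, topoisomerase II alpha (ENSCAFG00000016090, chromosome 9, 22207403 to 22237674, shared by 2 genes), was measured at 37.1, 68.6, 30.7 and 4.01 FPKM in N1, N3, N8 and N9 and at 27.1, 51.6 and 84.9 FPKM in T1, T3 and T10. T10 was the highest sample and T1 lay below N1, N3 and N8, and the groups overlapped.

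The log2 fold change of TOP2A was 0.98 ± 0.86 (adjusted p = 0.789 by limma), and 0.20 without N9. The ratio of TOP2A to MKI67 was 3.77, 3.17, 2.72 and 1.31 in N1, N3, N8 and N9, 2.90 in T1, 9.88 in T10 and 16.8 in T3. T3 and T10 were thus above all other samples in this ratio as in that of CDK1 to PLK1, and T1 was within the range of non-tumor bone in the former and just below it in the latter. Both pairs were picked after their values were seen, and no test was made of them.

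The tumor samples differed from each other by gene, not only by level. In T1, 22 of 45 genes had their lowest tumor level, among them MCM6, PCNA, CDK1, UBE2C, BIRC5 and TOP2A. In T3, 19 of 45 were lowest, among them MKI67, PLK1, PRC1, DLGAP5 and the 7 G1/S regulators and transcription factors, MYBL2 included. In T10, 4 of 45 were lowest, and they were MCM5, CDT1, AURKB and CDC20. Within non-tumor bone without N9, N8 was lowest in 24 of 45 genes, 16 of them mitotic, and N1 in 20 of 45, 9 of them of S phase.

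The S phase genes were then set against the mitotic genes within each sample, as the mean log2(FPKM + 1) of 14 genes minus that of 24. The 14 S phase genes were those of licensing, helicase, fork and nucleotide supply, and the 24 mitotic genes the cyclins, kinases, checkpoint, spindle and chromosome genes. The difference in non-tumor bone was smallest in N1 with 0.00, followed by N3 with 0.28, N8 with 0.69 and N9 with 0.72, and in tumor it was 0.08 in T1, 0.60 in T3 and -0.20 in T10. With all 14 S phase genes, T10 was the only sample in which the mitotic genes had the higher mean, and N8, N9 and T3 had the largest excess of S phase genes. The mean difference was 0.42 ± 0.34 (SD, n = 4) in non-tumor and 0.16 ± 0.41 (SD, n = 3) in tumor, -0.26 apart, within the spread of the samples, and the groups overlapped. This difference was -0.48 without T3, -0.40 without N1, -0.17 without N8 and -0.079 without T10, and with the replicate block it was -0.11 (random) or 0.20 (fixed).

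Without N9 the difference between the groups was -0.16, and without PCNA and RRM1, the S phase genes least lowered in N9, it was -0.22. With these genes left out, the difference within a sample was also below 0 in N1 (-0.12) and T1 (-0.087). The median log2 fold change was 0.34 in the 14 S phase genes, with 11 above 0 and 3 below, and 0.62 in the 24 mitotic genes, with 21 above 0 and 3 below. Without N9 these medians were -0.16 and -0.05, with 4 of 14 and 11 of 24 above 0. Both sets had 0 called genes with and without N9.

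**Figure D4:**
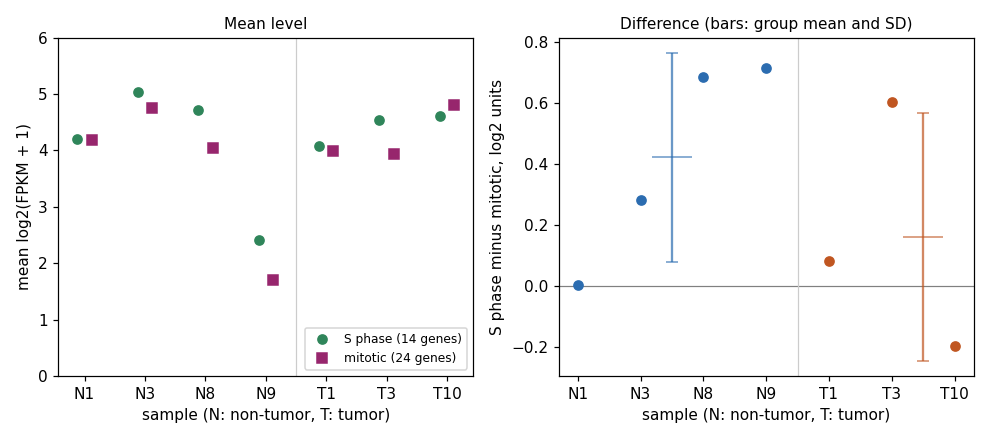
Left, mean log2(FPKM + 1) of 14 S phase and 24 mitotic genes in each sample; right, their difference, with the group mean and SD as bars (n = 4 non-tumor, n = 3 tumor). Both sets are lowest in N9, and the difference runs from 0.00 to 0.72 in non-tumor and from -0.20 to 0.60 in tumor samples.

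Further genes of the cell cycle, 110 in 4 lists, were examined beside the 45. Of these, 99 were in the table and 97 were tested, 1 was called higher and 1 lower, or 2 of 97 against 6.86% of all genes tested (3.28% higher and 3.58% lower), so the share of calls was no larger than over all genes. In the list of origin and fork genes, 0 of 35 were called and the median log2 fold change was 0.19, and 20 of the 35 tested were lowest in N9. In the list of spindle, kinetochore and cytokinesis genes, 1 of 43 was called higher, the median was 0.36, and 41 of 43 were lowest in N9. Of all genes tested 16.1% were lowest in N9, and no test was made of the difference between these lists. Of the 6 D-type cyclins and G1 kinases 0 were called (median 0.82). Of 13 tested CDK inhibitors, pocket proteins and quiescence genes 1 was called lower (median 0.07), with 3 of these 13 lowest in N9.

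MELK, a kinase of dividing cells (ENSCAFG00000002334), was measured at 4.55, 8.21, 3.56 and 0.504 FPKM in N1, N3, N8 and N9 and at 8.38, 18.8 and 8.91 FPKM in T1, T3 and T10. Each tumor sample was above each non-tumor sample, T1 by little over N3. Its log2 fold change was 1.502 ± 0.66, with an unadjusted limma p of 0.0485 (adjusted p = 0.693). It stayed past the threshold when N3 was left out, with an unadjusted limma p of 0.0257, and missed it when any other sample was left out, with unadjusted p-values from 0.0574 to 0.171 and a log2 fold change of 0.99 without N9.

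RB1, the retinoblastoma protein that holds E2F factors in check (ENSCAFG00000004436), was measured at 5.40, 50.3, 37.6 and 47.0 FPKM in N1, N3, N8 and N9 and at 7.26, 6.94 and 6.90 FPKM in T1, T3 and T10. The tumor samples and N1 were low and the other 3 non-tumor samples high, N9 among them. Its log2 fold change was -1.80 ± 0.73, with an unadjusted limma p of 0.0354 (adjusted p = 0.693). Without N1 it was -2.51 with an unadjusted limma p of 0.000421, and without any other sample it missed the threshold, with unadjusted p-values from 0.0781 to 0.0960.

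The summed level of the cell cycle genes was finally set beside the markers of cell types a bone sample can hold. Of all genes tested 3.58% were called lower in tumor. Of the erythroid markers 10 of 14 were called lower, and of the granulocyte markers 6 of 8 (AHSP and CAMP had the highest means of these lists), while 0 of the 45 cell cycle genes were. N1, with 13.4 FPKM of erythroid and 110 FPKM of granulocyte markers, had 894 FPKM of cell cycle genes, between N9 with 203 and N8 with 1102. SLC4A1, RHAG and TRIM58 of the erythroid and CTSG and RAB44 of the granulocyte markers were listed at 0 in at least 1 sample. Muscle markers, of which CKM had the highest mean, were called lower in 10 of 11, with CKM and TNNT3 listed at 0 in at least 1 sample, and they made up 5.04% of the summed FPKM of all genes in N8 and 4.39% in N9. Osteoblast markers were called in 0 of 9.

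**Figure D5:**
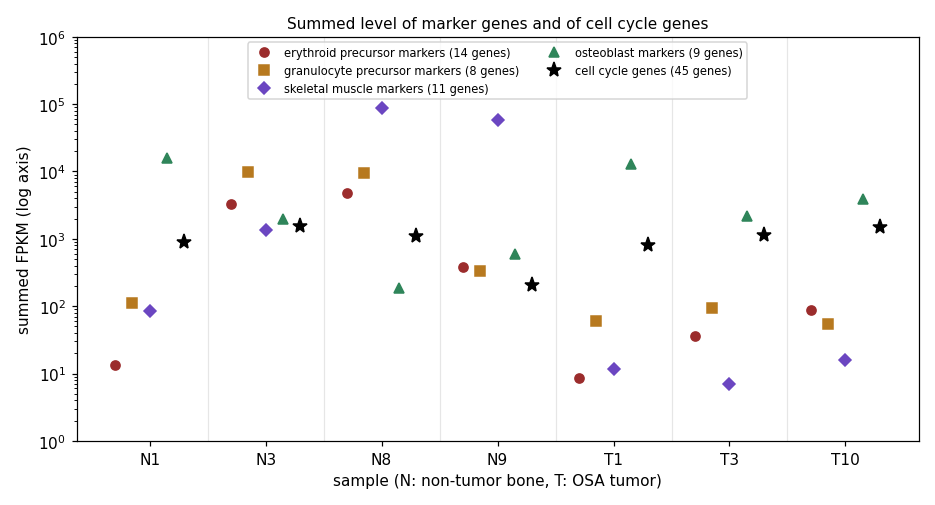
Summed FPKM (log axis) of the markers of erythroid and granulocyte precursors, skeletal muscle and osteoblasts and of the 45 cell cycle genes in each of the 7 samples. The cell cycle sum stays between 802 and 1531 FPKM in all samples but N9, at 203 FPKM (not scaled to the summed FPKM of all genes), while each of the 4 marker sums spans a wider range over the samples.

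The other marker lists stood for lymphocytes, macrophages, fat and vessels. T and NK cell markers summed to 5.43 to 273 FPKM in non-tumor and 3.95 to 18.5 FPKM in tumor, and B cell precursor markers to 13.2 to 214 and 19.3 to 27.7 FPKM, with 1 of 8 and 0 of 7 tested genes called lower. RAG1, RAG2, DNTT, VPREB1 and PAX5 of the B cell and CD247, CD8A and NKG7 of the T cell list were listed at 0 in at least 1 sample. Macrophage markers summed to 58.2 FPKM in N9, 267 to 981 FPKM in the other non-tumor samples and 173 to 570 FPKM in tumor, with 0 of 7 called. Adipocyte markers (4 of 4 called lower) and endothelial markers (3 of 7) were highest in N9, at 281 and 322 FPKM, against 29.3 to 162 and 73.7 to 117 FPKM in N1, N3 and N8.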

How the data were processed

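RNA from 3 OSA tumor and 4 non-tumor bone samples of dogs was sequenced on an Illumina HiSeq instrument. Reads were trimmed (Trim Galore) and aligned to the dog genome CanFam3.1 (Tophat2), and the authors deposited a Cuffdiff estimate in FPKM for each gene and sample. The submitters' processing notes also list CASAVA, FastQC and cutadapt. Further tool versions and the scaling between libraries were not given in the sources used here. From the authors' second table, a comparison of the groups, only the genomic interval of each gene (deposited text, of a unit other than expression) was used, with 1 added to its start. Its group FPKM, fold changes, test statistics, p-values and q-values were not used.

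FPKM were log2-transformed after adding 1, genes whose mean was 1 FPKM or more were tested, and the groups were compared in limma 3.58.1 (R 4.3.3, empirical Bayes with a mean-variance trend) with no covariate. A call needed a log2 fold change of at least 1 either way and an unadjusted p under 0.05, and Benjamini-Hochberg adjustment ran over all 13507 genes tested. The fit was tested on simulated data. Counts, sums and ratios were computed in Python 3.11.15 with pandas 2.3.3 and numpy 2.4.6, and figures drawn with matplotlib 3.10.9. No counts were analysed here, so precision is given only by the spread between samples, and depth only relative to N1. All 7 FPKM columns were used.

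The genes, the lists of roles, further cell cycle genes and markers of 9 cell types were chosen with earlier results of these data known. Values per sample are given for each gene past the call, for the gene with the highest mean and the gene with the smallest p of each role, and for MKI67, TOP2A, PCNA and the 6 MCM genes. Other genes were named to account for the whole list. Of the further lists, genes past the call are named, and of each marker list the gene with the highest mean, which was EBF1 for B cell precursors, NKG7 for T and NK cells, CD68 for macrophages, LPL for adipocytes and PECAM1 for endothelium.

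Alternatives were pseudocounts of 0.1 and 0.01, no filter, a filter that asks for 1 FPKM or more in 3 or more samples, FPKM rescaled to the same sum, median ratio scaling, quantile normalization, no trend, sample weights from arrayWeights, a replicate block by the number in the label, and leaving out each sample. Leaving out N1 and N9 together, and PCNA and RRM1, was added after the data were seen.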

Additional observations from a re-analysis of the deposited data

Results flagged for a closer look

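In 9 of the 45 genes, N9 lay so far below N1, N3 and N8 on log2(FPKM + 1) that its gap to the nearest of them, as a share of the whole range of the 4 samples, was over the 95% limit of Dixon's test. Chance would place about 1 in 20 groups past this limit, and the genes are not independent of each other. Of all 13507 genes tested, 6.92% (935 genes) had a non-tumor sample past the limit in either direction, and in 81 genes it was N9 on the low side. The values of N9 were 1.53 FPKM for MCM2, 2.22 FPKM for MCM5, 6.36 FPKM for MCM7, 1.21 FPKM for GINS2, 2.66 FPKM for MYBL2, 2.21 FPKM for PLK1, 1.22 FPKM for BUB1B, 1.39 FPKM for CDC20 and 13.4 FPKM for BIRC5. The gap was widest in CDC20, at 0.929 of the range, with N1, N3 and N8 between 17.5 and 20.7 FPKM. The groups of 3 tumor samples were not tested in this way.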

How the results depend on the processing

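With each change of pseudocount, filter, scaling, trend, weights, block or single sample left out, 0 of the 45 genes were called higher and 0 lower. Without N1 and N9 together, a choice made after the data were seen, 2 were called lower. Of the further cell cycle genes, 1 was called higher and 1 lower. The count of those called higher was 0 with pseudocounts of 0.1 and 0.01, without the filter and with the fixed replicate block, 2 with quantile normalization, arrayWeights and the random replicate block, and 0 to 2 when each sample was left out. The count called lower was 2 with both pseudocounts and arrayWeights, 0 with FPKM rescaled to the same sum and with the fixed replicate block, 0 to 4 when each sample was left out and 5 without N1 and N9. MELK lost its call with pseudocounts of 0.1 (log2 fold change of 1.89) and 0.01 (1.96), without the filter (1.502), with rescaling to the same sum (1.60), with arrayWeights (1.35) and with the fixed replicate block (0.93), and RB1 with rescaling to the same sum (-1.60) and with the fixed replicate block (-1.16). Over all genes, 443 were called higher and 483 lower, but 826 and 1031 with arrayWeights, 142 and 99 with the fixed replicate block, and 187 to 852 and 126 to 1145 when each sample was left out. The share of calls that were lower was 52.2%, but 64.4% with FPKM rescaled to the same sum, 42.8% with quantile normalization 41.1% with the fixed replicate block, 29.7% without T10 and 31.3% without T3 (29.7% to 63.5% when each sample was left out), and 65.7% without N1 and N9. Rescaling to the same sum moved the median log2 fold change of all genes from -0.02 to 0.12, and 42 of 45 cell cycle genes were then above 0, MCM7 among them at 0.0056.

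The numbers in the labels pair N1 with T1 and N3 with T3 only. Deviations from the group means correlated within these pairs at 0.42 and 0.21, against -0.27 to 0.14 in the other pairs, a hint from the data. The labels speak of matched adjacent bone, without saying that the numbers mark the dogs. The fixed replicate block, which rests on 4 samples, turned the S phase minus mitotic difference between the groups from -0.26 to 0.20, and 7 of 45 cell cycle genes were above 0. With this block the log2 fold change was -0.25 for MCM2, -1.09 for MCM3, -0.35 for MCM4, -0.19 for PCNA, -0.64 for MYBL2, -0.10 for FOXM1, -0.017 for CDK1 and -0.42 for TOP2A. With the random replicate block it was -0.092 for MCM3 and -0.12 for MYBL2, and with arrayWeights -0.12 for MCM4 and -0.31 for MYBL2. When each sample was left out, the log2 fold change ran from -0.25 to 0.80 for MCM3, -0.39 to 0.59 for MCM4, -0.21 to 0.89 for MCM5, -0.58 to 0.030 for MCM7, -0.0062 to 0.71 for PCNA, -0.73 to 0.51 for MYBL2, -0.039 to 0.84 for BIRC5, 0.99 to 1.87 for MELK and -2.51 to -1.50 for RB1. The cause of these changes was not tested. With 3 tumor samples, depth known only in relative terms and intervals of 1.70 to each side at the median, a difference of 2-fold in a cell cycle gene was mostly not detectable.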

Other observations

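Some genes that control entry into the cycle had their extreme in 1 sample, named here after their values were seen. CDK4, the kinase that starts G1 with a D-type cyclin, was measured at 373 FPKM in T3, against 35.1 and 74.9 FPKM in T1 and T10 and 13.7 to 51.3 FPKM in non-tumor bone. Its partner cyclin D2 (CCND2) was also highest in T3, at 51.6 FPKM, and between 0.685 and 6.88 FPKM in the other 6 samples. Cyclin D1 (CCND1) was measured at 22.0, 12.8 and 37.9 FPKM in T1, T3 and T10 and at 26.5, 6.13, 4.01 and 1.45 FPKM in N1, N3, N8 and N9. T3, with these levels of CDK4 and CCND2, had the lowest MKI67 of the tumor samples, at 3.07 FPKM.

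CDKN2A, whose product p16 inhibits CDK4, was measured at 54.3 FPKM in T10 and at 0 to 1.63 FPKM in the other 6 samples. CDKN1A, the p21 inhibitor, was highest in T3 at 55.8 FPKM, against 3.30 to 23.2 FPKM elsewhere. RBL2, a pocket protein of resting cells, was highest in N9 at 43.2 FPKM, against 7.38, 23.99 and 16.3 FPKM in N1, N3 and N8 and 5.71 to 8.99 FPKM in tumor. CCNG1 was likewise highest in N9, at 2002 FPKM, with 1087 FPKM in N8 and 26.01 to 139 FPKM in the other 5 samples. None of these genes was called in the comparison of tumor with non-tumor by limma (unadjusted p from 0.0511 to 0.855).

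The 6 subunits of the origin recognition complex were not alike in N9. ORC1 was measured at 10.3, 28.4, 11.7 and 1.72 FPKM in N1, N3, N8 and N9, and ORC6 at 14.8, 15.5, 9.24 and 1.01 FPKM in the same samples. ORC2 was measured at 15.7, 16.3, 11.1 and 21.3 FPKM there and ORC3 at 9.33, 10.1, 9.79 and 10.8 FPKM. ORC4 (23.2 to 27.8 FPKM in non-tumor bone, 26.1 in N9) and ORC5 (5.77 to 10.6 FPKM, 5.83 in N9) had N9 within the range of the others. N9 was thus the lowest of the non-tumor samples in ORC1 and ORC6 and the highest in ORC2 and, by little, in ORC3. POLD2, a polymerase delta subunit, was listed at 0 in all 7 samples.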
